A study of Homo sapiens with 10 samples.

Results

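The genes considered encode 7 proteins of sodium, potassium, chloride, bicarbonate or water transport across the plasma membrane. These are the sodium pump β subunits ATP1B1 and ATP1B3, the chloride cotransporters SLC12A2 and SLC12A4, the bicarbonate cotransporter SLC4A7, and the aquaporins AQP1 and AQP3. Although β subunits do not themselves carry out transport, all 7 are called transporters below. They were taken by symbol, as the 7 rows of the count table, of 60448 rows in all, whose Ensembl identifiers carry these symbols in GENCODE 44. Their mRNA was compared between untreated confluent monolayers of the human cell lines EA.hy926 and HMEC-1, with 5 biological replicates of each line and no other groups. EA.hy926 was derived by fusing endothelial cells of the umbilical vein with A549 lung carcinoma cells. HMEC-1 came from dermal microvascular endothelium and carries the SV40 large T antigen. Both lines are given as wild type in the labels and came from a commercial collection. EA.hy926 was kept in Advanced DMEM with 5% fetal bovine serum. HMEC-1 was kept in MCDB 131 with 10% serum, epidermal growth factor at 10 ng/mL and hydrocortisone at 1 μg/mL, and both media held glutamine, gentamicin and penicillin. Each group is 1 established line in its own medium, so effects of line and of medium cannot be told apart.

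The sodium pump is an ATPase that exports sodium and imports potassium. Its α subunit carries out transport, and its β subunit is a glycoprotein needed for folding, delivery to the membrane and contact between neighbouring cells. The sodium gradient drives other carriers. SLC12A2 (NKCC1) uses it to load cells with chloride, SLC12A4 (KCC1) lets potassium and chloride leave as cells shrink back to their volume, and SLC4A7 (NBCn1) brings in bicarbonate with sodium and so raises the pH of the cytosol. Aquaporins are water pores. AQP1 is the classical water channel of many capillary endothelia, while AQP3 also passes glycerol and is best known from epithelia such as the collecting duct and the epidermis.

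Each library held between 33391640 and 43877224 counts on genes, a depth at which 3 counts correspond to 0.0651 to 0.0904 CPM (a gene’s counts relative to the TMM-scaled size of its library). Of 12 endothelial markers, 12 were above 3 counts in all HMEC-1 libraries and 10 in all EA.hy926 libraries, where EMCN had 0 to 2 counts and CLDN5 0 to 5. Their levels summed to 4740 to 5390 CPM in the EA.hy926 libraries, against 1760 to 1810 CPM in HMEC-1. Of 12 epithelial markers, 7 were above 3 counts in all EA.hy926 libraries and 9 in all HMEC-1 libraries, with sums of 1280 to 1390 and 431 to 494 CPM, most of them from KRT7, KRT8 and KRT18, while CDH1 had at most 1 count and GRHL2 was at 0 in all 10 libraries. Of 10 fibroblast and mural markers, 5 and 7 were above 3 counts in all libraries, with sums of 411 to 470 and 480 to 510 CPM, led by RGS5 in EA.hy926 and COL1A1 in HMEC-1, while DCN and LUM were at 0 throughout. The part of these marker levels in the results was not tested, and in bulk RNA fewer cells of a type and less RNA per cell cannot be told apart.

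The lines differed in most genes, and this sets the scale for the transporters. Of 16310 genes tested, 85.8% had an adjusted p under 0.05 (edgeR's quasi-likelihood test, Benjamini-Hochberg adjustment over all genes tested), with 42.6% higher and 43.3% lower in EA.hy926. An absolute log2 fold change (log2FC, EA.hy926 minus HMEC-1) above 1 was also reached by 35.5%, with 19.1% upwards and 16.4% downwards in EA.hy926. The balance of these directions turned with the scaling, from 3110 genes upwards and 2674 downwards to 2809 and 3085 where library totals replaced TMM factors. CPM values of the lines did not overlap in 77.4% of the genes. Beside this, all 7 transporters passed the filter on low counts, 4 were higher in EA.hy926, 2 were lower and ATP1B1 did not pass the test. Both thresholds were passed by 4 of the 7, by SLC4A7 and AQP1 upwards and by SLC12A4 and AQP3 downwards. The values of the lines did not overlap for 6 of the 7. Their median log2FC was 0.306 and their median absolute log2FC 1.042, against -0.010 and 0.651 over all genes tested.

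**Figure D1:**
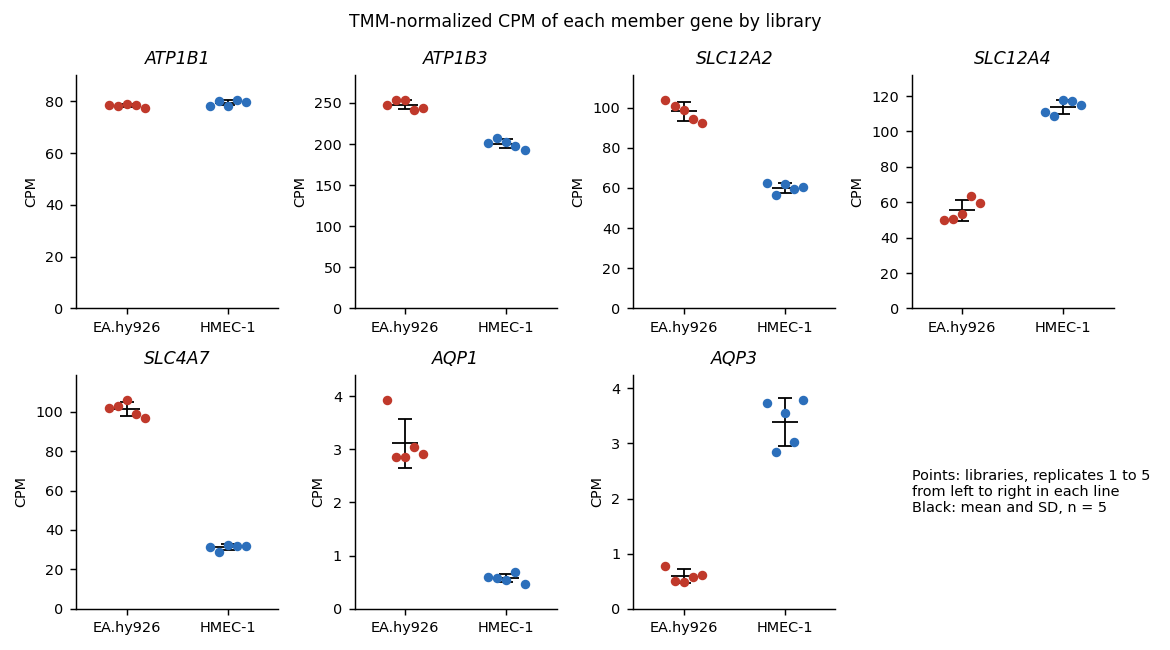
CPM scaled by TMM factors (vertical axes, each from 0) of the 7 genes in the 5 libraries of EA.hy926 (red) and the 5 of HMEC-1 (blue), where points are libraries and black lines are the mean and SD. The points of the lines overlap for ATP1B1 alone, and AQP1 and AQP3, with means of at most 3.39 CPM, take opposite directions.

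The sequences upstream of AQP1 and AQP3 are shown because these genes had the largest differences of the 7 and opposite directions, and because theirs were the windows among the 7 genes that held TATAAA. They are the 250 bases before each transcription start in RefSeq (GRCh38.p14), AQP1 on chr7:30911603-30911852 of the plus strand and AQP3 on chr9:33447594-33447843 of the minus strand, and capitals mark TATAAA.
AQP1: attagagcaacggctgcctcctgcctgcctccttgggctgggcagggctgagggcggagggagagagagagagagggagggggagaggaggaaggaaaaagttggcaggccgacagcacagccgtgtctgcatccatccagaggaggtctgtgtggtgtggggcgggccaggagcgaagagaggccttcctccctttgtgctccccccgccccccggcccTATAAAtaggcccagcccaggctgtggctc
AQP3: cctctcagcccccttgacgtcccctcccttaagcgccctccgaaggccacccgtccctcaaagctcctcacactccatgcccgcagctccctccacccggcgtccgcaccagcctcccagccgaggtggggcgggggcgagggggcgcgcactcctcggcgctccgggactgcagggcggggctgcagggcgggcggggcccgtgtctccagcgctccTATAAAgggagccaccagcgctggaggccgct
The 7 genes have 11 such windows in RefSeq. TATAAA, or its reverse TTTATA, was found in 2 of them and in 10.7% of 35116 windows of all genes, and it began 30 bases before the start of AQP1 and 32 bases before that of AQP3. The GC box GGGCGG, or CCGCCC, was found in 8 of the 11 windows, at least 1 for each of the 7 genes, and in 42.6% of all windows. TGTTCT, or AGAACA, a half-site of the glucocorticoid receptor searched because the medium of HMEC-1 holds hydrocortisone, was found in 1 of the 11 windows, the upstream one of an inner start of SLC4A7, and in 12.4% of all. The AQP1 window held 8 CpG sites at 65.2% GC and the AQP3 window 23 at 73.6%, against medians of 11 and 58.0% over all windows. The motifs were chosen after the values of the genes were seen, and a match is a description of the letters only.

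Both β subunits of the sodium pump among the 7 genes were well expressed in both lines. ATP1B1 (ENSG00000143153, chromosome 1, 169105697 to 169310992, plus strand) was at 78.8, 78.1, 78.9, 78.8 and 77.3 CPM in EA.hy926 replicates 1 to 5 and at 78.4, 80.1, 78.4, 80.7 and 79.7 CPM in those of HMEC-1. The ranges of the lines overlapped in part, with EA.hy926 replicates 2 and 5 below every HMEC-1 library, HMEC-1 replicates 2, 4 and 5 above every EA.hy926 library, and coefficients of variation of 0.846% and 1.33%. The means of 78.4 ± 0.663 and 79.5 ± 1.06 CPM (SD, n = 5 each) gave a log2FC of -0.020 with a standard error of 0.0247 (adjusted p = 0.453, edgeR). An absolute log2FC larger than this was measured in 98.2% of the genes tested. Where libraries were scaled to their totals without TMM factors, which moves the median log2FC of all genes by -0.135, ATP1B1 had a log2FC of -0.155 (adjusted p = 5.4e-06). Exons of other genes, mainly of NME7 on the opposite strand, cover 3.21% of its exonic bases.

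ATP1B3 (ENSG00000069849, chromosome 3, 141876124 to 141926549, plus strand), another β isoform of the pump, was higher in EA.hy926. Its libraries were at 248, 253, 254, 241 and 244 CPM in EA.hy926 and at 201, 207, 203, 198 and 193 CPM in HMEC-1. The lowest EA.hy926 library was above the highest of HMEC-1. The difference was small, 1.24-fold (log2FC 0.306, standard error 0.0252, adjusted p = 2.8e-10), and 73.5% of the genes tested differed by more.

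Of 10 other genes of the sodium pump and its FXYD regulators, 2 passed the filter. While 42.6% of all genes tested were higher in EA.hy926 and 43.3% lower, 1 of these 2 was higher and 1 lower. FXYD5, a single-span protein that binds the pump and alters cell adhesion, was the higher one, at 262 ± 4.62 against 106 ± 6.23 CPM (SD, n = 5 each, log2FC 1.311, adjusted p = 3.0e-19). The gene lower in EA.hy926 was ATP1B2, another β subunit, at 0.082 against 0.391 CPM (adjusted p = 4.6e-06). It had only 1 to 4 counts in the EA.hy926 libraries and 12 to 20 in those of HMEC-1.

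The chloride cotransporters went in opposite directions. SLC12A2 (ENSG00000064651, chromosome 5, 128083766 to 128189677, plus strand), the chloride loader, was at 104, 101, 98.7, 94.5 and 92.4 CPM in EA.hy926 and at 62.7, 56.3, 61.8, 59.6 and 60.6 CPM in HMEC-1. Every EA.hy926 library was above every HMEC-1 library. The means of 98.2 ± 4.87 and 60.2 ± 2.47 CPM (SD, n = 5 each) were 1.63-fold apart (log2FC 0.706, standard error 0.0358, adjusted p = 5.9e-14), under the log2FC threshold of 1.

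SLC12A4 (ENSG00000124067, chromosome 16, 67943474 to 67969601, minus strand), the chloride exporter, was at 50.0, 50.8, 53.4, 63.7 and 59.3 CPM in EA.hy926 and at 111, 109, 118, 117 and 115 CPM in HMEC-1. The groups did not overlap, and the EA.hy926 libraries were the more spread, with a coefficient of variation of 10.7% against 3.35%. Replicates 4 and 5 of EA.hy926 had the highest SLC12A4 of that line and the lowest ATP1B3, SLC12A2 and SLC4A7. SLC12A4 was 2.06-fold lower in EA.hy926 (log2FC -1.042, standard error 0.05, adjusted p = 2.2e-14), just past the threshold of 1. The log2FC was -1.0 without EA.hy926 replicate 1 and reached -1.091 when each of the 10 libraries was left out in turn. LCAT, on the same strand, shares 4% of its exonic bases.

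Of 6 other cation-chloride cotransporters, 4 passed the filter. While 42.6% of all genes tested were higher in EA.hy926 and 43.3% lower, 3 of these 4 were higher and 1 lower. The potassium chloride exporter SLC12A7 (KCC4) was higher in EA.hy926, where SLC12A4 was lower. Its level was 33.8 ± 1.04 against 19.6 ± 1.16 CPM (log2FC 0.788, adjusted p = 2.9e-13). The one gene lower in EA.hy926 was SLC12A8, at 0.763 ± 0.257 against 3.25 ± 0.239 CPM (log2FC -2.082, adjusted p = 1.9e-10).

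WNK kinases act through their targets SPAK and OSR1, which phosphorylate chloride cotransporters. This activates the chloride loaders and inhibits the exporters. Of 12 genes of this pathway, 11 passed the filter, of which 2 were higher, 8 lower and 1 did not pass the test. Of all genes tested, 42.6% were higher and 43.3% lower. The median log2FC of the 11 was -0.875, against -0.010 over all genes tested. WNK4 averaged 1.36 ± 0.13 CPM in EA.hy926 against 31.3 ± 1.03 CPM for HMEC-1 (log2FC -4.527, adjusted p = 1.9e-23), with 15.4% of its exonic bases shared with other genes. STK39, which encodes SPAK, was at 17.6 ± 0.775 and 38.0 ± 0.698 CPM (log2FC -1.110, adjusted p = 9.0e-17), and its relative OXSR1 (OSR1) at 116 ± 2.06 and 124 ± 3.09 CPM (log2FC -0.095, adjusted p = 0.0019).

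WNK1, the WNK kinase of most tissues, was at 294 ± 22.1 and 289 ± 7.57 CPM and did not pass the test (log2FC 0.023, standard error 0.0388, adjusted p = 0.575). With library totals its log2FC was -0.112 (adjusted p = 0.00699). CAB39L, a scaffold of SPAK and OSR1, was at 3.04 ± 0.322 and 13.0 ± 0.669 CPM (log2FC -2.093). Its more abundant relative CAB39 was at 70.5 ± 2.17 and 129 ± 2.34 CPM, a smaller difference (log2FC -0.875). SGK1, a kinase of sodium transport whose gene is a known target of the glucocorticoid receptor, was at 42.2 ± 1.95 and 139 ± 9.77 CPM (log2FC -1.714, adjusted p = 2.6e-19). KLHL3, which presents WNK kinases for degradation, went the other way, at 26.6 ± 2.73 and 10.1 ± 0.761 CPM (log2FC 1.396, adjusted p = 2.4e-14).

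SLC4A7 (ENSG00000033867, chromosome 3, 27372721 to 27484420, minus strand), the bicarbonate loader, had the largest difference among the 5 genes at over 10 CPM. Its EA.hy926 libraries were at 102, 103, 106, 98.6 and 97.0 CPM and its HMEC-1 libraries at 31.1, 28.6, 32.4, 31.8 and 31.9 CPM. The lines were far apart relative to the spread within each. SLC4A7 was 3.25-fold higher in EA.hy926 (log2FC 1.700, standard error 0.0355, adjusted p = 9.3e-21), and 21.8% of the genes tested had a larger absolute log2FC.

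Of 9 other genes of the SLC4 family, 5 passed the filter, 4 were higher in EA.hy926 and 1 was lower. The median log2FC of the 5 was 1.801, where 42.6% of all genes tested were higher. Of the 4, SLC4A3 and SLC4A5 were under 1 CPM in both lines, at 0.590 against 0.184 and 0.493 against 0.137 CPM, and exons of other genes cover 63.9% of the exonic bases of SLC4A5. SLC4A8, which also takes up bicarbonate with sodium, was at 41.2 ± 1.88 against 4.00 ± 0.386 CPM (log2FC 3.361, adjusted p = 3.4e-22), and SLC4A11 at 26.1 ± 1.99 against 7.36 ± 0.521 CPM (log2FC 1.831, adjusted p = 3.7e-17). The gene lower in EA.hy926 was SLC4A2 (AE2), a chloride-bicarbonate exchanger that acidifies cells, at 103 ± 1.93 against 165 ± 2.00 CPM (log2FC -0.671, adjusted p = 1.2e-16), with 10.1% of its exonic bases shared with other genes.

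Of 9 genes of sodium-proton exchange, 7 passed the filter. Over all genes tested, 42.6% were higher in EA.hy926 and 43.3% lower. Of the 7, 3 were higher, 1 was lower and 3 did not pass the test. The exchangers of internal membranes SLC9A7, at 29.0 ± 1.03 against 3.71 ± 0.233 CPM (log2FC 2.969, adjusted p = 1.2e-21), and SLC9A8, at 35.2 ± 1.24 against 12.4 ± 0.567 CPM (log2FC 1.509, adjusted p = 2.9e-18), had the largest differences at over 1 CPM.

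The aquaporins were low in both lines and opposite in direction. AQP1 (ENSG00000240583, chromosome 7, 30911853 to 30925517, plus strand), whose upstream sequence is printed above, was at 3.93, 2.86, 2.85, 3.04 and 2.91 CPM in EA.hy926, from 95 to 145 counts, and at 0.599, 0.588, 0.542, 0.687 and 0.471 CPM in HMEC-1, from 18 to 28 counts. All HMEC-1 libraries were below all EA.hy926 libraries, among which replicate 1 was the highest. AQP1 was 5.38-fold higher in EA.hy926 (log2FC 2.428, standard error 0.153, adjusted p = 2.7e-12). A same-strand gene, ENSG00000250424, shares 27.9% of the exonic bases of AQP1 and had 0 counts in all 10 libraries. How reads on the shared bases were counted was not tested, so these 0 counts do not show that AQP1 lost no reads there.

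AQP3 (ENSG00000165272, chromosome 9, 33441156 to 33447596, minus strand) was at 0.785, 0.512, 0.484, 0.573 and 0.62 CPM in EA.hy926, from 17 to 29 counts, and at 3.74, 2.84, 3.56, 3.02 and 3.79 CPM in HMEC-1, from 116 to 164 counts. Here the HMEC-1 libraries were all the higher ones. AQP3 was 5.65-fold lower in EA.hy926 (log2FC -2.497, standard error 0.154, adjusted p = 1.9e-12). For both aquaporins the line with the lower level had at most 29 counts in a library, so the counting error of single libraries is larger than for the other 5 genes. Coefficients of variation were 14.7% and 13.7% for AQP1 and 20% and 12.8% for AQP3, in EA.hy926 and HMEC-1 respectively.

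Of the 11 other aquaporins, 2 passed the filter, and neither passed the test. AQP11, an aquaporin of internal membranes, was at 0.979 and 0.931 CPM (log2FC 0.064, standard error 0.183, adjusted p = 0.748), and AQP5 at 0.314 and 0.360 CPM (log2FC -0.201, standard error 0.311, adjusted p = 0.548). These standard errors leave room for differences of the size seen for ATP1B3.

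**Figure D2:**
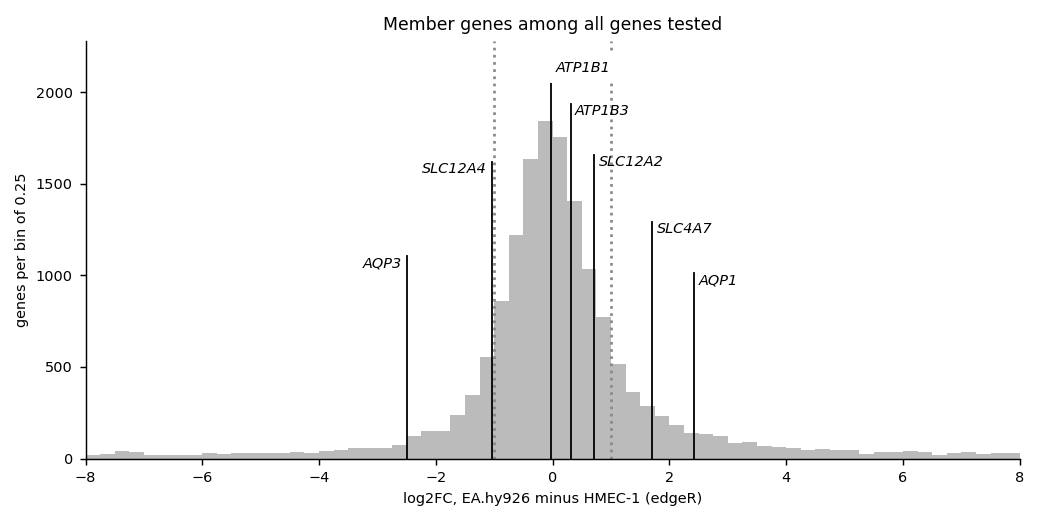
Number of genes in bins of 0.25 of log2FC (EA.hy926 minus HMEC-1, horizontal axis, values from -8 to 8) for the genes tested, with vertical lines at the log2FC of the 7 transporters and dotted lines at -1 and 1. ATP1B1 lies near 0, ATP1B3 and SLC12A2 lie inside the dotted lines, and AQP3 and AQP1 lie farthest out on either side.

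Cells also balance their volume by taking up organic osmolytes, under the tonicity-responsive factor NFAT5. Of 6 genes listed for this, 5 passed the filter and all 5 were higher in EA.hy926, as were 42.6% of all genes tested. Their median log2FC was 1.022, against -0.010 over all genes tested. The myo-inositol carrier SLC5A3 was at 112 ± 11.4 against 28.0 ± 2.12 CPM (log2FC 2.009, adjusted p = 5.4e-18) and the taurine carrier SLC6A6 at 169 ± 4.08 against 95.8 ± 2.83 CPM (log2FC 0.822, adjusted p = 3.1e-17). AKR1B1, the aldose reductase that makes sorbitol, was at 304 ± 9.73 against 134 ± 2.22 CPM (log2FC 1.184, adjusted p = 2.7e-20). NFAT5 itself was at 172 ± 28.7 against 84.8 ± 5.58 CPM (log2FC 1.022, adjusted p = 1.0e-10), but its log2FC was below 1 with library totals, at 0.886, and without EA.hy926 replicates 1, 2 or 3, at 0.964, 0.992 and 0.998, or HMEC-1 replicates 2, 3 or 5, at 0.987, 0.996 and 0.995, each left out singly.

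Over all 85 genes of the transport lists, 45 passed the filter, 20 were higher, 17 were lower and 8 did not pass the test. Both thresholds were passed by 24, 15 upwards and 9 downwards in EA.hy926. Of all genes tested, 42.6% were higher and 43.3% lower, and 35.5% passed both thresholds. The median absolute log2FC of the list genes was 1.110 against 0.651 over all genes tested. The lists were chosen with earlier results of these data known, so these values are a description only.

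**Figure D3:**
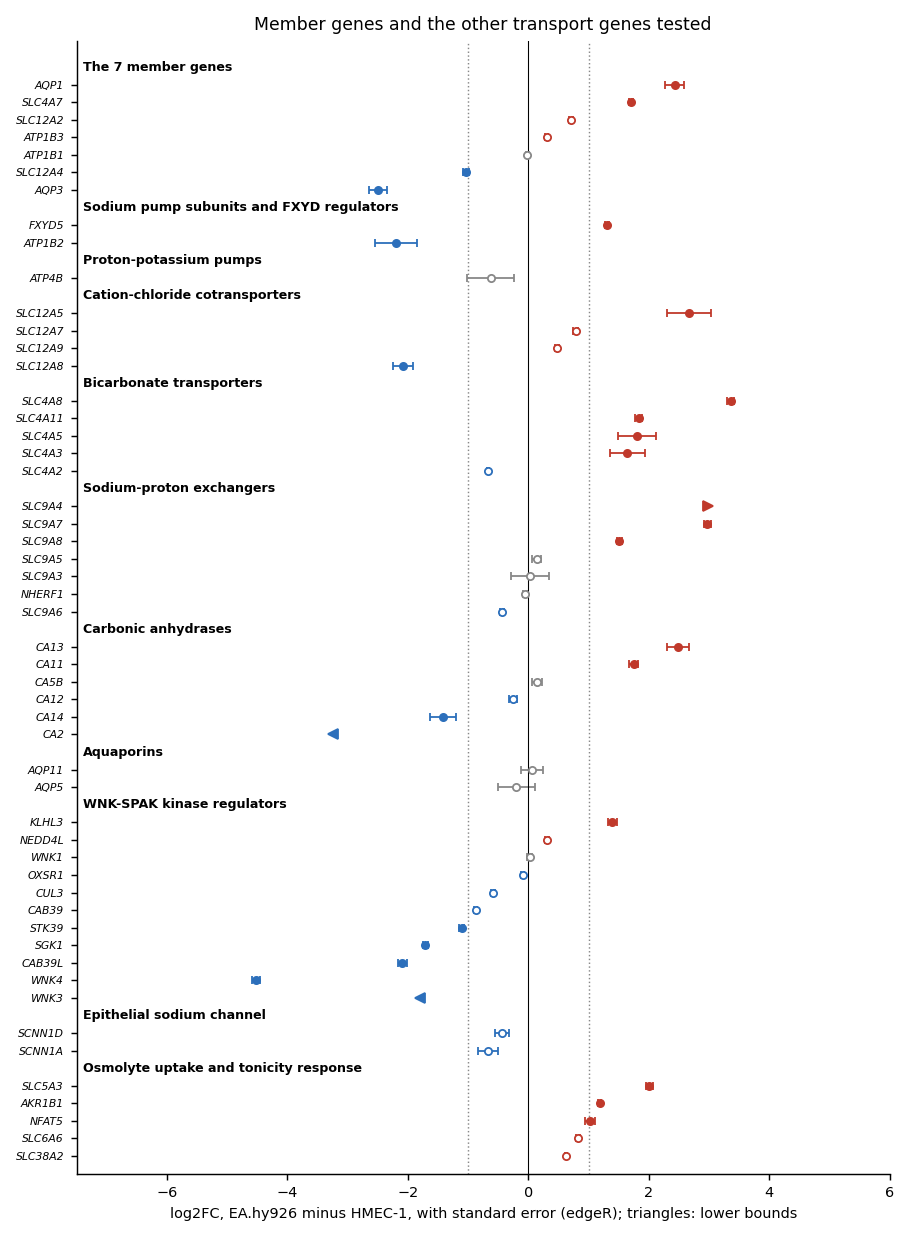
Log2FC (EA.hy926 minus HMEC-1, horizontal axis) with its standard error for the 7 transporters and the 45 tested genes of the transport lists, where red passed the test (adjusted p under 0.05) as higher and blue as lower in EA.hy926, grey did not pass, filled points passed both thresholds and open points did not. Triangles stand at lower bounds for SLC9A4, CA2 and WNK3, which had at most 3 counts in every library of 1 line, and 8 of the 11 WNK-SPAK regulators lie on the left while the osmolyte genes are all on the right.

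To compare the genes with one another, CPM was divided by the length in kilobases of the union of annotated exons. In EA.hy926 this level was 94.7 ± 2.04 CPM per kb for ATP1B3, 10.5 ± 0.363 for SLC4A7, 9.22 ± 0.457 for SLC12A2, 6.6 ± 0.704 for SLC12A4, 6.38 ± 0.0539 for ATP1B1, 0.956 ± 0.14 for AQP1 and 0.204 ± 0.0408 for AQP3 (SD, n = 5). Neighbours in this order were separate in all libraries except SLC12A4 and ATP1B1, whose values overlapped. In HMEC-1 the order was ATP1B3 at 76.6 ± 1.95 CPM per kb, SLC12A4 at 13.6 ± 0.455, ATP1B1 at 6.47 ± 0.0861, SLC12A2 at 5.65 ± 0.232, SLC4A7 at 3.24 ± 0.158, AQP3 at 1.16 ± 0.149 and AQP1 at 0.177 ± 0.0243, with no overlap between neighbours. ATP1B3 thus stood first in both lines, while SLC4A7 stood above SLC12A2 and SLC12A4 in EA.hy926 and below both in HMEC-1, and the aquaporins exchanged places. With the longest annotated transcript as the length, the mean of SLC12A2 stood above that of SLC4A7 and that of ATP1B1 above SLC12A4 in EA.hy926. The libraries of ATP1B1, at 12.1 to 12.3 CPM per kb, then overlapped those of SLC12A4, at 10.6 to 13.5, and of SLC4A7, at 12.0 to 13.1.

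**Figure D4:**
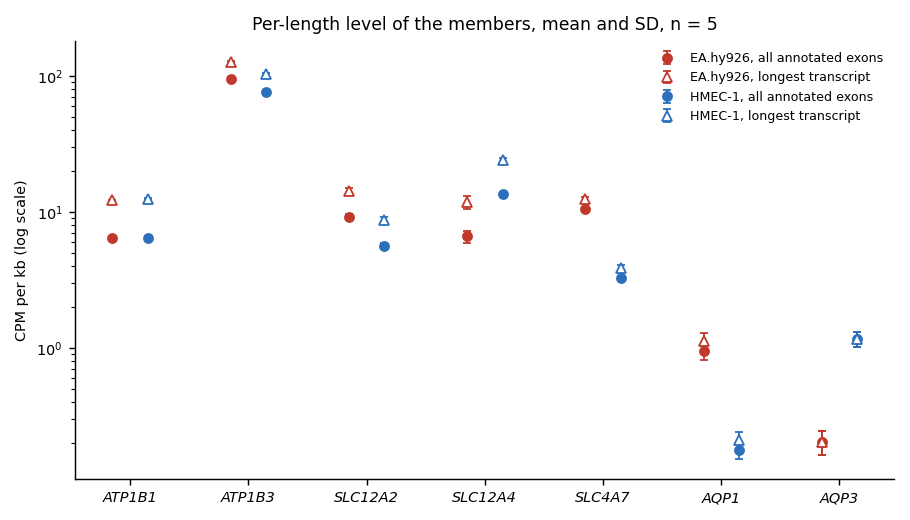
Level per length (CPM per kb of the union of annotated exons, logarithmic axis) of the 7 transporters in each line, as the mean and SD of 5 libraries, with open triangles for the length of the longest transcript. ATP1B3 lies highest in both lines, and AQP1 and AQP3 lie lowest and exchange places.

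Ratios of these levels within a library compare paired genes and are given without a test. ATP1B3 exceeded ATP1B1 per length by 14.9 ± 0.312 times in EA.hy926 and 11.9 ± 0.368 times in HMEC-1. Much of this came from the annotated exon lengths, 2617 bases for ATP1B3 and 12290 for ATP1B1. Before division by length, their means were 248 and 78.4 CPM in EA.hy926 and 201 and 79.5 CPM in HMEC-1. With the longest transcript as the length, the ratios were 10.4 and 8.29. The ratio of the chloride loader SLC12A2 to the exporter SLC12A4 was 1.65, 1.57, 1.46, 1.17 and 1.23 in EA.hy926 and 0.445, 0.406, 0.412, 0.401 and 0.415 in HMEC-1. It was above 1 in every library of EA.hy926 and below 1 in every library of HMEC-1. With the longest transcript as the length, the lowest EA.hy926 library was at 1.02. The ratio of AQP1 to AQP3 was 4.73 ± 0.418 in EA.hy926 and 0.156 ± 0.0376 in HMEC-1.

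**Figure D5:**
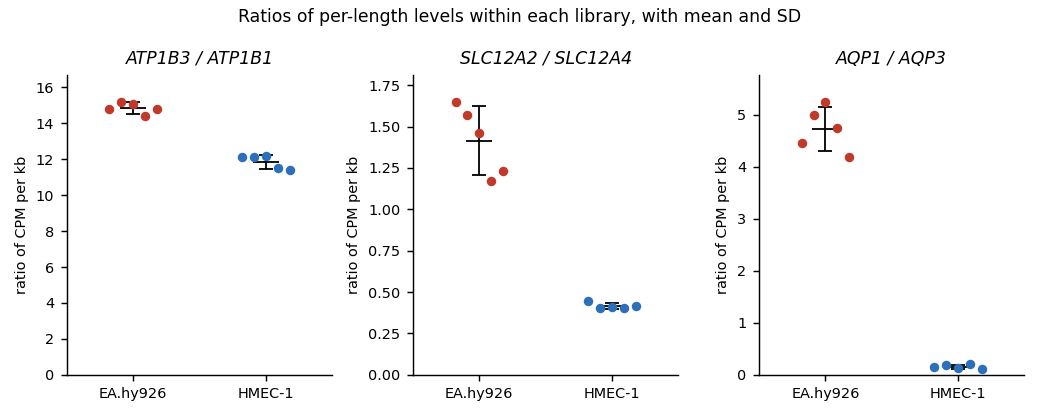
Ratios of the levels per length of ATP1B3 to ATP1B1, SLC12A2 to SLC12A4 and AQP1 to AQP3 (vertical axes, each from 0, no unit) in the libraries of each line, with the mean and SD. The first is above 11 in all 10 libraries, and the other two are above 1 in EA.hy926 and below 1 in HMEC-1.

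For each of the 7 genes, the protein-coding gene with the most similar profile was taken as that with the smallest root mean square difference of centred log2 CPM over the 10 libraries, among 13018 genes. These were DLST for ATP1B1 at 0.019, DDOST for ATP1B3 at 0.020, RPL28 for SLC12A2 at 0.038, MAP3K6 for SLC12A4 at 0.050, MAPK8IP1 for SLC4A7 at 0.049, DUSP6 for AQP1 at 0.126 and AREG for AQP3 at 0.101. The last, which encodes the EGF receptor ligand amphiregulin, had a log2FC of -2.505, and DUSP6, a phosphatase of the ERK pathway, one of 2.265. With libraries of 2 lines only, the measure reflects mainly the size of the difference between the lines.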

How the data were processed

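Poly(A) RNA of 10 libraries, 5 of each line, was sequenced on an Illumina NovaSeq 6000. The authors deposited raw counts per gene, neither normalized nor filtered. The submitters' processing notes name fastp, HISAT2, featureCounts and GRCh38, while the study's methods name HTSeq for the counting. Versions and the strand setting of the counting are not given in the sources used here, so reads of overlapping genes could not be told apart by strand. The study describes the replicates as biological, and no batch is given in the labels.

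Groups and replicate numbers came from the labels. GENCODE 44 matched 93.4% of the identifiers. The filterByExpr function, at a minimum count of 10 and a total of 15, removed low genes. In edgeR 4.0.16 (R 4.3.3), TMM factors (trimmed mean of M-values) scaled the libraries, and the lines were compared by the quasi-likelihood test, glmQLFTest after glmQLFit, without covariates and with Benjamini-Hochberg adjustment over all 16310 genes tested. CPM used the TMM-scaled library sizes. The standard error was obtained by dividing the size of the log2FC by the root of the F statistic. Where no library of a line exceeded 3 counts, the fold difference was bounded by the CPM of 3 counts per library. Exon overlaps on either strand were found with bedtools 2.31.1. The thresholds, 0.05 for the adjusted p and 1 for the absolute log2FC, are those of the study. The test was tried on simulated counts.

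The 7 genes and the lists were chosen with earlier results of these data known. Of the lists, the text names fixed partners and regulators and, among genes past both thresholds with at least 1 CPM in the higher line, the 2 highest and 2 lowest log2FC of each list. Counts over the lists leave out 4 genes whose results are not given. The marker genes, ATP1B2, SLC4A3, SLC4A5, AQP5, AQP11, ATP4B, SLC9A4, WNK3, CA2, CA5B, CA12, CA14, NHERF1, CAB39, SCNN1A and SCNN1D were named after their values were seen. Alternatives were DESeq2 1.42.0, limma-voom (limma 3.58.1), no filter, a minimum of 10 counts in all libraries, library totals, RLE factors, the replicate number as a block, leaving out each library, and the longest transcript as the length.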

Additional observations from a re-analysis of the deposited data

Results flagged for a closer look

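AQP1 in EA.hy926 replicate 1, at 3.93 CPM, stood apart from the other 4 libraries of its line, which lay between 2.85 and 3.04 CPM. The gap to the nearest library was 0.817 of the range, above Dixon's critical value of 0.71 for 5 samples. This was 1 of 20 groups examined, and chance flags about 1 in 20. Without that library the log2FC of AQP1 was 2.337 (adjusted p = 2.9e-12, edgeR), against 2.428 with it.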

How the results depend on the processing

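Of 17 alternatives, ATP1B3, SLC12A2, SLC12A4, SLC4A7, AQP1 and AQP3 kept their direction and their side of an adjusted p of 0.05 in 17, and ATP1B1 in 16. The exception was ATP1B1 with library totals, at a log2FC of -0.155 (adjusted p = 5.4e-06). The same scaling gave NHERF1 a log2FC of -0.192 (adjusted p = 4.1e-06, against -0.057 and 0.0766 with TMM factors) and took CAB39 past a log2FC of -1, at -1.010 against -0.875. Leaving out each library moved the log2FC from -1.091 to -1.0 for SLC12A4, from 2.337 to 2.485 for AQP1 and from -2.612 to -2.427 for AQP3, and the number of the 7 genes past both thresholds was 4 in every fit. Over all genes, 5784 were past both thresholds, 9312 without a filter on low counts and 3255 with at least 10 counts in every library, where fewer genes were tested. Of the transport lists, 24 genes were past both thresholds, 16 with at least 10 counts in every library and 23 to 24 without single libraries. The longest transcript as the length changed the ratio of ATP1B3 to ATP1B1 from 14.9 to 10.4 in EA.hy926 and from 11.9 to 8.29 in HMEC-1, that of SLC12A2 to SLC12A4 from 1.41 to 1.23 in EA.hy926 and from 0.416 to 0.361 in HMEC-1, and that of AQP1 to AQP3 in EA.hy926 from 4.73 to 5.6. The replicate numbers shared by the labels did not pair the libraries: same-numbered libraries correlated at -0.0228 to 0.0389 in their deviations from the line means, and 2 of 5 libraries in each line correlated best with their own number. With the replicate block, 5786 genes were past both thresholds, 4 of the 7 genes and 24 of the list genes, ATP1B1 had a log2FC of -0.020 (adjusted p = 0.501), and SLC12A4 and AQP1 had -1.047 and 2.417.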

Other observations

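Carbonic anhydrases, which supply bicarbonate and protons to the transporters described, differed in both directions. Of 15 listed, 6 passed the filter. Over all genes tested, 42.6% were higher in EA.hy926 and 43.3% lower. Of the 6, 2 were higher, 3 were lower and CA5B did not pass the test (adjusted p = 0.135, edgeR). Without EA.hy926 replicate 3, CA5B had an adjusted p of 0.036. CA13, a cytosolic enzyme, was at 2.50 ± 0.393 against 0.443 ± 0.105 CPM (SD, n = 5 each, log2FC 2.489, adjusted p = 3.4e-11), and CA11, a family member without enzyme activity, at 17.0 ± 1.57 against 5.05 ± 0.41 CPM (log2FC 1.751, adjusted p = 1.7e-15). CA2, the fast cytosolic enzyme, had 0 counts in all EA.hy926 libraries and 26 to 46 counts in those of HMEC-1, at least 9.46-fold lower in EA.hy926. CA12 and CA14, bound to the plasma membrane, had log2FC values of -0.258 (adjusted p = 0.00113) and -1.421 (adjusted p = 2.6e-06). CA12 was at 6.81 ± 0.519 against 8.14 ± 0.174 CPM, while CA14 was under 1 CPM in both lines, at 0.305 against 0.819 CPM.

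Of 4 subunits of the epithelial sodium channel, SCNN1A and SCNN1D passed the filter. Both were lower in EA.hy926, as were 43.3% of all genes tested. SCNN1A had a log2FC of -0.672 (adjusted p = 0.00083, edgeR) at 0.989 to 1.62 against 1.49 to 2.77 CPM, where the lines overlapped. SCNN1D had a log2FC of -0.433 (adjusted p = 0.00155) at 1.71 to 2.03 against 2.33 to 2.93 CPM, without overlap. Of 3 proton-potassium pump genes, ATP4B alone passed the filter, at 0.184 against 0.285 CPM (log2FC -0.627, adjusted p = 0.136). Genes of the lists at the limit of detection in 1 line were SLC9A4, at least 7.94-fold higher in EA.hy926, and WNK3, at least 3.47-fold lower.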
